A study of Oryctolagus cuniculus with 9 samples.

Results

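Lymphatic endothelial genes were read in the ligamentum flavum, the elastic ligament between vertebral laminae, of rabbits whose spines had been operated on or sham operated. The set holds 5 genes, CCL21, MMRN1, LYVE1, PROX1 and FLT4, taken by name from the 23407 gene rows of the deposited tables, and each of the 5 had a row. They were chosen by name with their scaled read counts in these libraries already known, CCL21 and MMRN1 having been seen among the large falls in Fused against Control. Their own values and changes are therefore given as a description in all 3 comparisons, which share libraries, and no p-value is given for them.

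RNA was sequenced from 9 libraries of male New Zealand white rabbits aged 70 weeks, operated on at 18 weeks. In the Fused group (3 libraries) the ligament came from a level fused with instrumentation, and in the ISC group (3 libraries) from the level of intervertebral stress concentration, which lay between fused levels and had lost its supraspinal muscle. The Control group (3 libraries) had a sham operation. The labels attach the text on muscle resection and fusion to all samples, so what the sham operation left out is not stated. It is not stated in the labels which of the libraries share a rabbit, whether Fused and ISC ligaments came from the same rabbits, or whether a group's libraries are separate rabbits. The spread and the p-values given here are therefore those between libraries, which may be technical. The study's title names mechanical stress on the ligament as its question.

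Lymphatic vessels drain tissue fluid and carry immune cells from tissues to lymph nodes. Their endothelial cells arise from veins under the transcription factor PROX1 and depend on the growth factors VEGF-C and VEGF-D, which act on the receptor FLT4. Lymphatic capillaries carry the hyaluronan receptor LYVE1, make the extracellular protein MMRN1 and secrete the chemokine CCL21, which draws in dendritic cells and T cells that bear the receptor CCR7. Other cells make these genes too: LYVE1 is also made by some tissue macrophages, MMRN1 by platelets and their precursors, FLT4 by some blood capillaries, and PROX1 by other cell types such as muscle fibres.

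Libraries held 1233155 to 1869209 reads in genes, and the scaled value of 3 reads lay between 2.40 and 3.58. Below it, counting error limits a value. Values are read counts divided by a size factor of the library, called scaled read counts here. Fused replicates 2 and 3 and ISC replicate 2 stood apart by haemoglobin reads, which took 5.68%, 6.45% and 5.03% of their reads, against 0.114% to 1.58% in the other 6 libraries. Of 12 ligament fibroblast markers 11 had a row, and their summed value was 8089 to 42020 in Fused, 32921 to 118985 in ISC and 24395 to 43793 in Control. Of 31 blood and pan-endothelial markers with a row, none was at 0 throughout a group.

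CCL21, the chemokine (chromosome 1, 19113491 to 19114651 on oryCun2, plus strand, 4 exons), had the widest range of the 5 genes. Its scaled read count was 2.32, 0 and 2.19 in Fused replicates 1 to 3, which are 2, 0 and 2 reads. It was 5.36, 5.97 and 123 in ISC replicates 1 to 3 and 28.3, 61.5 and 189 in Control replicates 1 to 3. Every Fused library lay below every ISC and every Control library. ISC replicate 3 lay inside the Control range and the other two ISC libraries below it.

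The group means of CCL21 were 1.5 ± 1.3 in Fused, 44.9 ± 68.0 in ISC and 92.8 ± 84.7 in Control (SD, n = 3 each). The log2 change was -5.00 (SE 0.73) for Fused minus Control, -1.99 (SE 1.17) for ISC minus Control and 3.01 (SE 1.18) for ISC minus Fused (log2 of the value plus 1, a scale that makes changes of low genes look smaller). Pooled over the libraries, 4 reads in Fused stood against 324 in Control, a ratio of 0.0154 with an exact 95% interval of 0.00418 to 0.0399 for counting error only. The interval leaves out the spread between libraries, and 217 of the 324 Control reads came from Control replicate 3. Nothing is read from it about the groups, since the contrast entered the choice of the genes.

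MMRN1, multimerin 1 (chromosome 15, 60019629 to 60101777, minus strand, 9 exons), followed the same order of groups. Its scaled read count was 1.16, 10.1 and 5.47 in Fused replicates 1 to 3, 18.2, 9.55 and 85.3 in ISC replicates 1 to 3, and 31.1, 62.3 and 116 in Control replicates 1 to 3. Every Fused library lay below every Control library. ISC replicate 2 lay just below Fused replicate 2, so Fused and ISC overlapped, and ISC replicate 3 again lay inside the Control range.

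The means of MMRN1 were 5.56 ± 4.45 in Fused, 37.7 ± 41.4 in ISC and 69.7 ± 42.8 in Control. The log2 change was -3.53 (SE 0.66) for Fused minus Control, -1.25 (SE 0.78) for ISC minus Control and 2.27 (SE 0.90) for ISC minus Fused. Pooled reads numbered 16 in Fused and 244 in Control, a ratio of 0.082 with an exact interval of 0.0461 to 0.136. This interval has the same limits, with 133 of the 244 Control reads from Control replicate 3, and nothing is read from it.

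**Figure D1:**
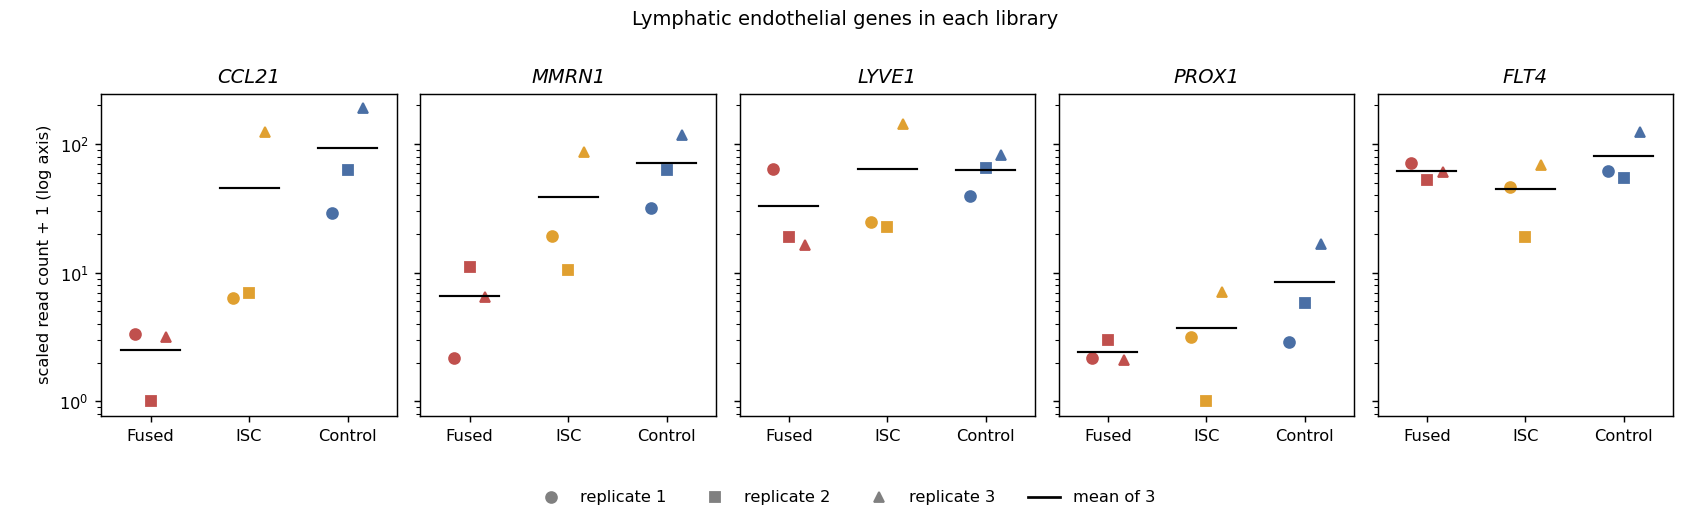
Scaled read count plus 1 (log axis) of the 5 lymphatic endothelial genes in each library of Fused, ISC and Control, with a point per library and a line at the mean of 3. CCL21 at 0 to 2.32 and MMRN1 at 1.16 to 10.1 in Fused lie below all Control libraries, while LYVE1, PROX1 and FLT4 overlap between Fused and Control.

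PROX1, the transcription factor that sets lymphatic identity (chromosome 16, 59146873 to 59199119, minus strand, 7 exons), was the scarcest of the 5. It had 1, 2 and 1 reads in Fused replicates 1 to 3, 2, 0 and 6 in ISC replicates 1 to 3, and 2, 6 and 18 in Control replicates 1 to 3. The scaled values were 1.16, 2.01 and 1.09 in Fused, 2.14, 0 and 6.02 in ISC and 1.89, 4.79 and 15.7 in Control. The groups overlapped, and every Fused library, ISC replicates 1 and 2 and Control replicate 1 lay under the value of 3 reads.

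The log2 change of PROX1 was -1.45 (SE 0.67) for Fused minus Control, -1.22 (SE 0.89) for ISC minus Control and 0.23 (SE 0.75) for ISC minus Fused. Pooled over libraries, 4 reads in Fused stood against 26 in Control, a ratio of 0.192 with an exact interval of 0.0488 to 0.554. For ISC over Fused the pooled ratio of 8 reads to 4 was 2.002, with an interval of 0.536 to 9.09. At this depth counting error alone spans both directions for ISC over Fused. Both intervals leave out the spread between libraries, and 18 of the 26 Control reads came from Control replicate 3.

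LYVE1, the hyaluronan receptor (chromosome 1, 152332037 to 152347942, minus strand, 6 exons), did not separate the groups. Its scaled read count was 62.7, 18.1 and 15.3 in Fused replicates 1 to 3, 23.6, 21.5 and 142 in ISC replicates 1 to 3, and 38.7, 64.7 and 81.8 in Control replicates 1 to 3. Fused replicate 1 lay inside the Control range and the other two Fused libraries below it. ISC replicates 1 and 2 lay below the Control range and ISC replicate 3 above it.

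The means of LYVE1 were 32.0 ± 26.6 in Fused, 62.5 ± 69.2 in ISC and 61.7 ± 21.7 in Control. The log2 change was -1.15 (SE 0.51) for Fused minus Control, -0.48 (SE 0.69) for ISC minus Control and 0.67 (SE 0.81) for ISC minus Fused.

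FLT4, the receptor of VEGF-C and VEGF-D (scaffold Un0032, 2015154 to 2044122, minus strand, 30 exons), overlapped between the groups in all 3 comparisons. Its scaled read count was 70.8, 51.3 and 60.1 in Fused replicates 1 to 3, 45.0, 17.9 and 68.2 in ISC replicates 1 to 3, and 61.3, 53.5 and 124 in Control replicates 1 to 3. Fused replicates 1 and 3 lay inside the Control range and replicate 2 just below it. ISC replicate 2, one of the libraries rich in haemoglobin reads, was the lowest of the 9.

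The means of FLT4 were 60.8 ± 9.79 in Fused, 43.7 ± 25.2 in ISC and 79.4 ± 38.4 in Control. The log2 change was -0.29 (SE 0.31) for Fused minus Control, -0.94 (SE 0.51) for ISC minus Control and -0.64 (SE 0.46) for ISC minus Fused.

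Counted over the 5 genes, Fused lay below Control without overlap for 2 (CCL21 and MMRN1), beside 13.3% of all tested genes. Since that contrast entered the choice of the genes, nothing is read from the count. ISC lay below Control without overlap for 0 of the 5, beside 8.73% of all tested genes, and above Fused without overlap for 1 (CCL21), beside 8.08%. All 5 genes passed the filter on low values, set at a scaled value of 1 in 3 of the 6 libraries compared. With that minimum raised to 10, PROX1 was lost from every comparison and CCL21 from ISC against Fused.

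Within Control and within ISC the 5 genes were mostly high and low in the same libraries. Control replicate 3 was the highest Control library for 5 of 5 genes and Control replicate 1 the lowest for 4. ISC replicate 3 was the highest ISC library for 5 of 5 and ISC replicate 2 the lowest for 4. Fused showed no such library: replicate 1 was the highest for 3 and replicate 2 for 2. This order was not particular to the 5 genes. The summed value of 31 blood and pan-endothelial markers was 4548, 4969 and 7004 in Control replicates 1 to 3. In ISC replicates 1 to 3 it was 4662, 3701 and 4912, so the highest and lowest libraries were the same.

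The order of the levels differed between groups. Nothing is read from the lower places of CCL21 and MMRN1 in Fused, since Fused against Control entered the choice of the genes. Per kilobase of exon, the mean scaled read count in Fused was 11.7 ± 9.68 for LYVE1, 10.7 ± 1.72 for FLT4, 1.76 ± 1.53 for CCL21, 1.26 ± 1.01 for MMRN1 and 0.179 ± 0.064 for PROX1. In Control the same quantity was 109 ± 99.2 for CCL21, 22.4 ± 7.90 for LYVE1, 15.8 ± 9.71 for MMRN1, 13.97 ± 6.75 for FLT4 and 0.938 ± 0.915 for PROX1. CCL21 was thus the highest of the 5 per length in each Control library and under both LYVE1 and FLT4 in each Fused library. The neighbours LYVE1 and FLT4 in Fused, CCL21 and MMRN1 in Fused, LYVE1 and MMRN1 in Control, and MMRN1 and FLT4 in Control differed by less than their SD.

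In ISC the mean scaled read count per kilobase was 52.6 ± 79.6 for CCL21, 22.7 ± 25.2 for LYVE1, 8.56 ± 9.41 for MMRN1, 7.69 ± 4.43 for FLT4 and 0.343 ± 0.385 for PROX1. The order by means is that of Control, but it rests on ISC replicate 3: CCL21 was at 144 per kilobase there, and at 6.28 and 6.99 in ISC replicates 1 and 2, under both LYVE1 at 8.58 and 7.82 there and, in replicate 1, FLT4 at 7.92. In bulk tissue, fewer cells of a type and less RNA per cell cannot be told apart, and no value here separates them.

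Set against a marker that all endothelial cells share, how many of the 5 genes lay lower in Fused than in Control depended on the marker chosen. Per CDH5 it was 3 of 5 without overlap (CCL21, MMRN1 and LYVE1), beside 3.97% of all tested genes. Per PECAM1 it was 5 of 5, beside 12.3%, and per TIE1 5 of 5, beside 14.6%. Nothing is read from these counts, since the contrast entered the choice of the genes. CDH5 encodes VE-cadherin, the adhesion protein of endothelial junctions, and its scaled read count was 219.5, 65.4 and 148 in Fused replicates 1 to 3, 70.8, 74.0 and 90.3 in ISC replicates 1 to 3, and 83.0, 83.1 and 174 in Control replicates 1 to 3. Its groups overlapped (limma adjusted p = 0.774 for Fused against Control). CCL21 per CDH5 was 0.0106, 0 and 0.0148 in Fused, 0.0758, 0.0806 and 1.37 in ISC, and 0.341, 0.74 and 1.08 in Control. Every Fused ratio lay below every other.

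MMRN1 per CDH5 was 0.0053, 0.154 and 0.037 in Fused, 0.258, 0.129 and 0.944 in ISC, and 0.375, 0.75 and 0.665 in Control. Here too each Fused ratio lay below each Control ratio. LYVE1 per CDH5 averaged 0.222 ± 0.103 in Fused, 0.734 ± 0.731 in ISC and 0.572 ± 0.180 in Control, and on this scale its Fused libraries, including replicate 1 at 0.286, all lay below the Control minimum of 0.466. PROX1 per CDH5 averaged 0.0145 ± 0.0141 in Fused and 0.0568 ± 0.0336 in Control, and FLT4 per CDH5 0.505 ± 0.246 in Fused and 0.698 ± 0.0484 in Control, both with overlap on this scale. Per PECAM1 and per TIE1 the groups did not overlap for either gene. FLT4 averaged 0.171 ± 0.0304 per PECAM1 in Fused and 0.324 ± 0.0832 in Control, and PROX1 0.00437 ± 0.00278 per PECAM1 in Fused and 0.0246 ± 0.0127 in Control. FLT4 averaged 0.707 ± 0.069 per TIE1 in Fused and 1.17 ± 0.192 in Control.

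VWF, the blood clotting factor stored in endothelial cells, averaged 2.92 ± 0.577 per CDH5 in Fused and 4.08 ± 1.04 in Control, with overlap. Per PECAM1, VWF averaged 1.06 ± 0.272 in Fused and 1.82 ± 0.194 in Control, without overlap, and per TIE1 it overlapped. It too was thus lower in Fused by 1 of the 3 markers.

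**Figure D2:**
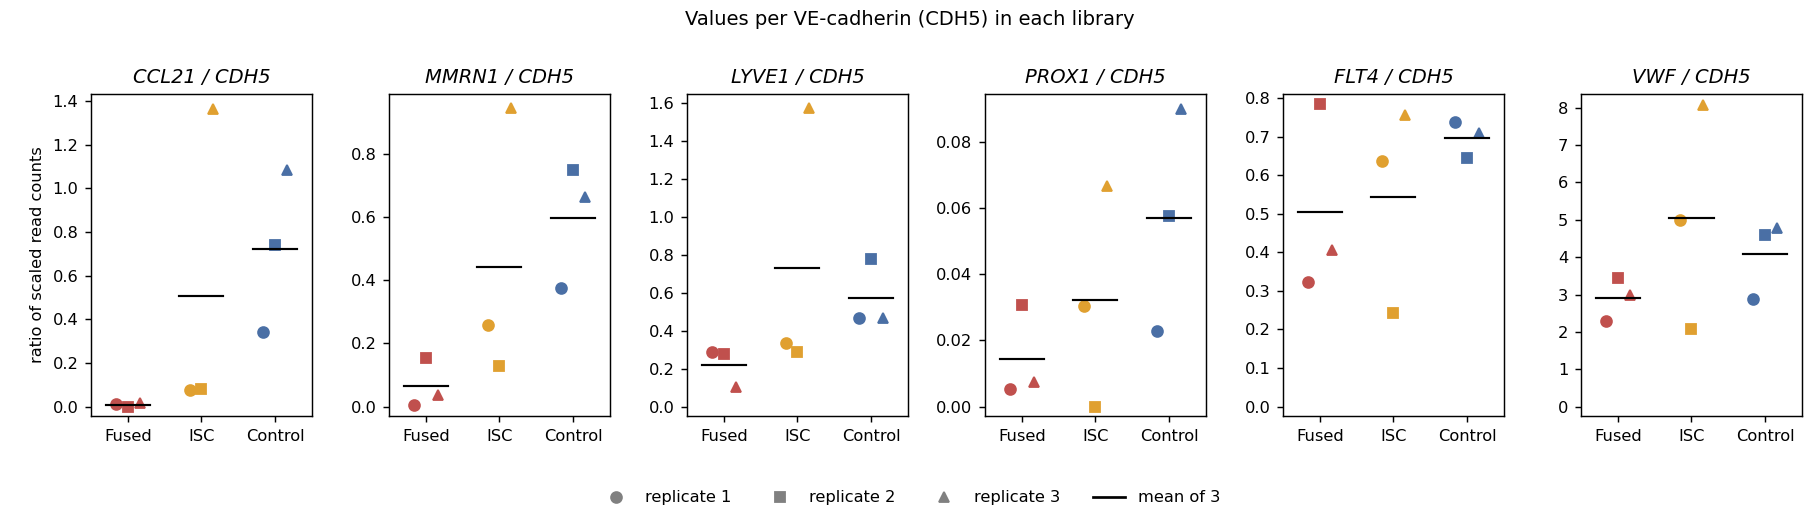
Ratio of the scaled read count of each of the 5 genes, and of VWF, to that of CDH5 in each library of Fused, ISC and Control, with linear axes and a line at the mean of 3. CCL21, MMRN1 and LYVE1 per CDH5 are lower in all Fused libraries than in any Control library, and ISC replicate 3 is the highest ISC library in all 6 panels.

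Markers of blood and all endothelium mostly did not pass the test at the fused level. Each comparison was fitted with limma on all tested genes, and the threshold for a call was 0.05 on the Benjamini-Hochberg adjusted p. Of 31 tested markers, 1 rose and 2 fell in Fused against Control, beside 3.98% and 2.60% of all genes called in these directions. The median log2 change of the list was 0.17, against 0.02 for all tested genes. TAL1, which rose by 3.91 on the log2 scale (adjusted p = 0.0154), is a transcription factor of blood precursors as well as endothelium, and its means were 193 ± 117 in Fused and 10.1 ± 3.52 in Control.

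The markers that fell were CD34, a surface sialomucin of endothelium, progenitors and some stromal cells, and RAMP2, the partner of the adrenomedullin receptor. CD34 was at 374, 171 and 144 in Fused and at 562, 814 and 555 in Control (log2 change -1.59, adjusted p = 0.0331). PECAM1, the platelet and endothelial adhesion molecule, averaged 371 ± 133 in Fused libraries and 256 ± 139 in Control libraries (adjusted p = 0.386). TIE1, VWF, TEK (an angiopoietin receptor) and KDR (the main VEGF-A receptor) had limma adjusted p between 0.436 and 0.846.

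In ISC against Control, 0 of the 31 endothelial markers were called by limma (4 at an unadjusted p under 0.05, and 0 by edgeR), beside 0.0488% of all genes. Over all 14348 tested genes, 1653 had an unadjusted limma p under 0.05, and edgeR called 5. The median log2 change was -0.43, with 26 of 31 markers lower, against a median of 0.00 over all tested genes. CDH5 averaged 78.4 ± 10.5 in ISC and 113 ± 52.5 in Control, and PECAM1 268 ± 102 in ISC and 256 ± 139 in Control (adjusted p = 0.605 and 0.915).

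Other genes of lymphatic identity and junctions, listed with earlier results of these data known, included few that passed the test. Of 26 tested members 2 fell and 0 rose in Fused against Control, beside 2.60% of all genes called lower and 3.98% called higher. A negative change was seen in 14 and a positive one in 12, and the median log2 change was -0.27, against 0.02 over all tested genes. By an unadjusted limma p under 0.05 there were 9 of 26, beside 3351 of all 14686 tested genes. EdgeR called 1 of 26, beside 997 of 14686. The genes that fell were SEMA3D, a secreted guidance protein of the semaphorin family, and TBX1, a T-box transcription factor.

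SEMA3D (chromosome 10, 42911188 to 43193330) had scaled read counts of 53.4, 18.1 and 39.4 in Fused replicates 1 to 3, 325, 399.8 and 288 in ISC replicates 1 to 3, and 258, 342 and 166 in Control replicates 1 to 3. The Fused libraries lay well below all others. The log2 change was -2.82 (SE 0.40, limma adjusted p = 0.0154) for Fused minus Control, 3.27 (SE 0.38, adjusted p = 0.0294) for ISC minus Fused and 0.45 (adjusted p = 0.559) for ISC minus Control. It was the only gene of this list called between ISC and Fused, beside 0.279% of all genes. Ligament fibroblast markers had median log2 changes of -0.67 for Fused minus Control, 1.81 for ISC minus Fused and 1.09 for ISC minus Control. Among the Fused libraries their summed value was highest in replicate 2 (42020), where SEMA3D was lowest. The part of fibroblasts in the SEMA3D values was not tested.

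TBX1 (scaffold Un0128, 894112 to 897621) had 0 reads in each Fused library and 18 reads over the Control libraries, where its scaled values were 5.66, 2.40 and 7.83. Against a floor of 3 reads over the Fused group it was at least 4.8-fold lower in Fused than in Control (limma adjusted p = 0.0297), and with TBX1 at that bound the list median stayed at -0.27. Its call was lost with edgeR (adjusted p = 0.0555), with a pseudocount of 5 (limma, 0.0529), with all 9 libraries in a single fit (0.0637) and with single libraries left out.

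Of the fixed panel of further genes, only FIGF, given below with the growth factor pathway, passed in Fused against Control. PDPN, the membrane glycoprotein podoplanin, averaged 272 ± 131 in the Fused libraries and 237 ± 50 in the Control libraries (limma adjusted p = 0.866). NRP2, a co-receptor of VEGF-C, averaged 264 ± 32.8 in the Fused libraries and 196 ± 45.1 in the Control libraries (adjusted p = 0.227). Both overlapped between the groups.

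The transcription factors beside PROX1 also overlapped. NR2F2, the venous factor that acts with PROX1, averaged 103 ± 31.3 in the Fused libraries and 126 ± 35.5 in the Control libraries (limma adjusted p = 0.585). SOX18, which switches PROX1 on in the mouse embryo, had 13.9, 5.03 and 3.28 in Fused and 2.83, 1.60 and 7.83 in Control (adjusted p = 0.569). GATA2, a factor of lymphatic valves, had 24.4, 41.2 and 14.2 in Fused and 6.60, 9.58 and 21.7 in Control (adjusted p = 0.266). FOXC2 was not analysed here.

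Low counts limited the remaining panel genes. STAB2, a scavenger receptor of sinus endothelium, had 3.48, 32.2 and 7.65 in Fused, 1.07, 13.1 and 2.01 in ISC, and 0.943, 0 and 0.87 in Control. All Fused and all ISC libraries lay above Control, and neither difference passed (limma adjusted p = 0.06 and 0.5). RELN, reelin, averaged 9.67 ± 5.36 in Fused, 42.5 ± 14.9 in ISC and 22.3 ± 19.1 in Control, with each ISC library above each Fused one (adjusted p = 0.15).

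ITGA9, an integrin of lymphatic valves, had 4.65, 15.1 and 2.19 in Fused and 9.43, 11.2 and 9.57 in Control (limma adjusted p = 0.516). ACKR4, a scavenging receptor for CCL21, had 1.16, 5.03 and 2.19 in Fused and 7.54, 1.60 and 3.48 in Control (adjusted p = 0.744), values near that of 3 reads.

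**Figure D3:**
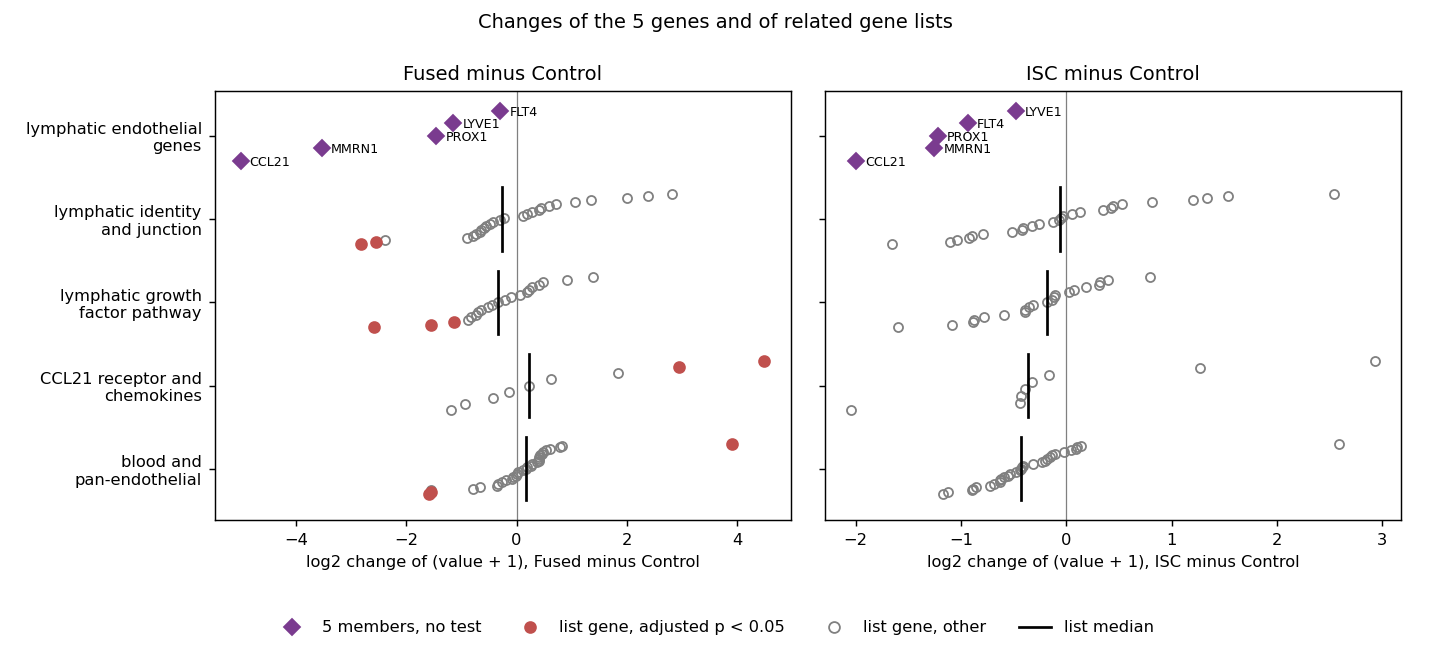
Log2 change of the 5 genes (diamonds, no test) and of the genes of 4 related lists (circles, filled where limma's adjusted p was under 0.05) in Fused minus Control and ISC minus Control, with a line at each list's median and different ranges on the x axes. In Fused minus Control CCL21 lies at -5.00 and MMRN1 at -3.53, lower than every gene of the 4 lists at this pseudocount. Nothing is read from that rank, since the contrast entered the choice of the 5 genes. The place of TBX1, with 0 reads in Fused, is set by the pseudocount. No list gene was called in ISC minus Control.

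Genes of the lymphatic growth factor pathway included a ligand of FLT4. Of 21 tested members 3 fell and 0 rose in Fused against Control, beside 2.60% and 3.98% of all genes (median log2 change -0.33, against 0.02). In ISC against Control limma called 0 of 21, with 4 at an unadjusted p under 0.05 and 0 by edgeR (median -0.18), beside 0.0488% of all genes. In ISC against Fused it called 0 of 22, with 3 at an unadjusted p under 0.05 and 0 by edgeR (median -0.07), beside 0.279%. Over all tested genes, 1653 of 14348 had an unadjusted limma p under 0.05 in ISC against Control. In ISC against Fused 1586 of 15404 did.

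FIGF, the older symbol of VEGFD (chromosome X, 1210958 to 1244039), encodes the growth factor VEGF-D. It had scaled read counts of 61.5, 23.1 and 8.75 in Fused replicates 1 to 3, 96.5, 26.3 and 43.1 in ISC replicates 1 to 3, and 112, 223 and 126 in Control replicates 1 to 3. Every Fused and every ISC library lay below every Control library. The log2 change was -2.59 (SE 0.59, limma adjusted p = 0.0396) for Fused minus Control and -1.59 (adjusted p = 0.333) for ISC minus Control. The call was lost with a pseudocount of 0.1 (limma adjusted p = 0.0514).

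VEGFC, the other ligand of FLT4, was at 43.0, 32.2 and 85.3 in Fused, 60.0, 37.0 and 48.2 in ISC, and 88.6, 99.8 and 76.5 in Control. Fused overlapped Control through replicate 3, and ISC lay below Control in each library, but neither difference passed (limma adjusted p = 0.176 and 0.314). The proteins of CCBE1 and ADAMTS3 mature VEGF-C. CCBE1 had 12.8, 9.05 and 5.47 in Fused and 4.71, 35.1 and 26.1 in Control (limma adjusted p = 0.497), and ADAMTS3 had 8.13, 26.1 and 18.6 in Fused and 18.9, 13.6 and 13.9 in Control (adjusted p = 0.959). ANGPT2, an angiopoietin that lymphatic vessels need, had 33.7, 24.1 and 13.1 in Fused and 33.9, 34.3 and 40.9 in Control, without overlap but not past the test (adjusted p = 0.276).

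The remaining pathway genes that fell were RAMP2, which is also on the endothelial list, and EMILIN1. RAMP2 (chromosome 19, 43477851 to 43479659) was at 137, 70.4 and 86.4 in Fused, 247, 100.3 and 136 in ISC, and 319, 223 and 305 in Control (log2 change -1.56, SE 0.26, adjusted p = 0.0178 for Fused minus Control). EMILIN1, an elastic fibre protein that anchors lymphatic capillaries in the mouse (chromosome 2, 158973383 to 158980788), was at 134, 126 and 79.8 in Fused, 291, 230.4 and 311 in ISC, and 202, 315 and 223 in Control (log2 change -1.13, SE 0.25, adjusted p = 0.0343). The Fused libraries lay below all Control libraries for both genes. CALCRL, the receptor that RAMP2 completes and a gene outside the named panel, had 52.3, 34.2 and 26.2 in Fused and 30.2, 44.7 and 70.5 in Control (limma adjusted p = 0.642).

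**Figure D4:**
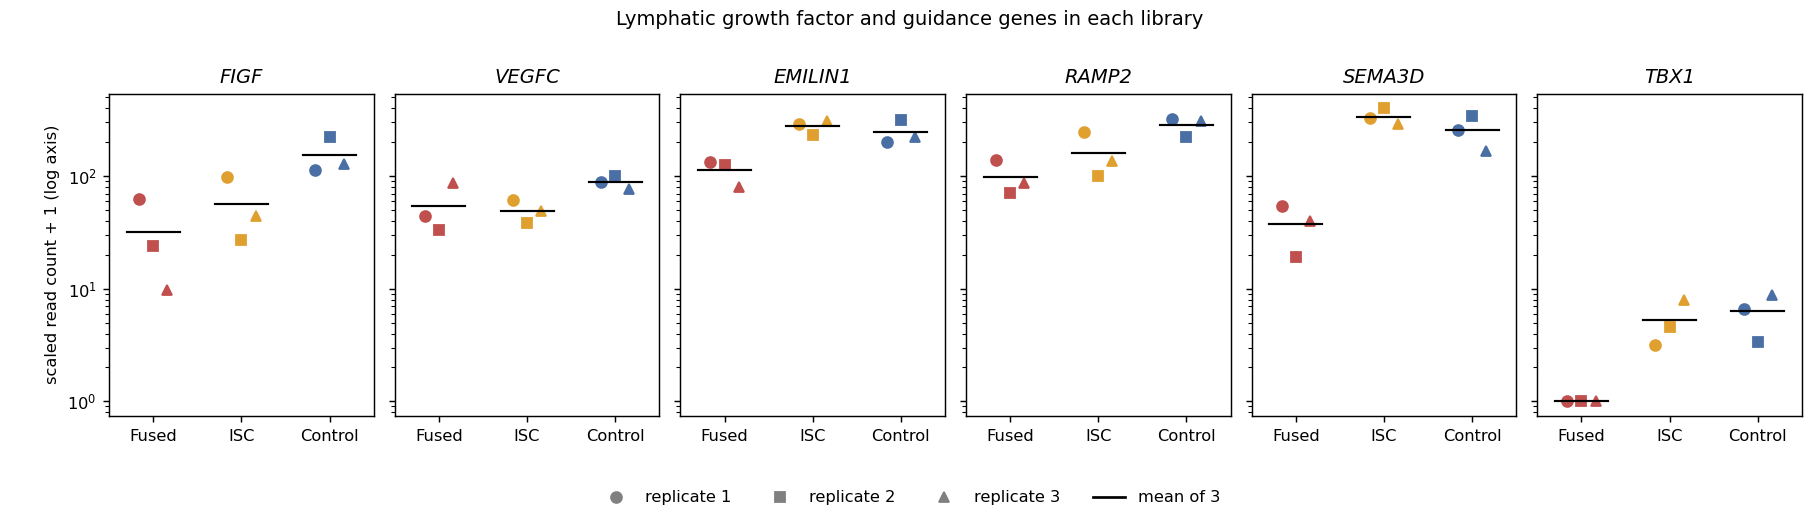
Scaled read count plus 1 (log axis) of FIGF (VEGFD), VEGFC, EMILIN1, RAMP2, SEMA3D and TBX1 in each library of Fused, ISC and Control, with a line at the mean of 3. Fused lies below Control in every library for each gene but VEGFC, and TBX1 has no read in Fused.

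The receptor of CCL21 and its second ligand were close to the limit of detection. CCR7 had 3.48, 11.1 and 1.09 in Fused, and between 0.943 and 5.22 in ISC and Control, and CCL19 lay between 0 and 5.22 in the 9 libraries. Of 9 tested genes of this chemokine list 2 rose in Fused against Control and 0 fell, beside 3.98% and 2.60% of all genes. CXCL12, a chemokine of marrow stroma and vessels, was at 832 ± 444 in Fused, 332 ± 359 in ISC and 96.7 ± 29.2 in Control (log2 change 2.95 for Fused minus Control, adjusted p = 0.0169). Its receptor CXCR4 was at 137 ± 101 in Fused, 74.5 ± 103 in ISC and 4.91 ± 4.80 in Control (log2 change 4.50, adjusted p = 0.0169). Both were highest in the 3 libraries rich in haemoglobin reads.

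Whether genes passed in Fused against Control depended on single libraries. This held for the 584 rises and 382 falls over all genes and for every list call above. The list changes kept their direction in every fit that held them, but not their size. With Fused replicate 1 as the only Fused library, the log2 change was -1.24 for FIGF, -0.76 for CD34, -0.85 for EMILIN1 and -1.02 for RAMP2. It was -2.18 for SEMA3D, 2.53 for TAL1, 1.79 for CXCL12 and 3.07 for CXCR4. Each was smaller in size than with all Fused libraries, while TBX1, with no Fused read, stayed at -2.55. Limma called 0 genes without Fused replicate 2, Fused replicate 3, Control replicate 1 or Control replicate 2, and 0 without Fused replicates 2 and 3 together. In these fits 1924 to 2811 genes had an unadjusted p under 0.05, and edgeR was not run on them. Over the fits that left out 1 library, the log2 change of SEMA3D was -3.15 to -2.39, that of TAL1 3.50 to 4.60 and that of RAMP2 -1.82 to -1.35, with limma adjusted p up to 0.0943, 0.0916 and 0.0943. With all 9 libraries in a single fit, SEMA3D kept its call (adjusted p = 0.0311), and TAL1, CD34, RAMP2, EMILIN1, FIGF, CXCL12 and CXCR4 lost theirs (0.0671 to 0.0808). SEMA3D between ISC and Fused lost its call without Fused replicate 2 or 3, or without any of the ISC libraries, at log2 changes of 2.84 to 3.38. With values rescaled to the reads outside haemoglobin and mitochondrial genes, the split of calls in Fused against Control became 693 higher and 267 lower.

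In Fused replicate 1, the Fused library poor in haemoglobin reads, CCL21 and MMRN1 had 2 and 1 reads and lay below Control. Nothing is read from this, since the contrast entered the choice of the genes. With Fused replicate 1 as the only Fused library, the log2 change from Control was -4.40 for CCL21, -4.84 for MMRN1, -1.60 for PROX1, 0.09 for LYVE1 and -0.06 for FLT4. LYVE1 thus changed sign: its low Fused values were those of replicates 2 and 3. Without ISC replicate 2 the log2 change of ISC from Control was -1.32 for CCL21, -0.60 for MMRN1, -0.47 for PROX1, -0.01 for LYVE1 and -0.41 for FLT4. Without ISC replicate 3 it was -3.40, -2.12, -1.88, -1.35 and -1.35 in the same order of genes.

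Macrophage markers, another source of LYVE1, ranked the libraries differently with and without a single gene. Of 16 macrophage markers 14 had a row, and none was at 0 throughout a group. Their summed value was 575 to 1139 in Fused, 1287 to 2451 in ISC and 2164 to 3319 in Control. ISC replicate 3, the library with the most LYVE1, had 2050, below ISC replicate 1 at 2451 and every Control library. F13A1, named through a gene table of another rabbit assembly, made up much of it, with 104 to 360 in Fused, 234 to 2215 in ISC and 1523 to 2724 in Control. Without that row, left out after its values were seen, the sum was 610, 820 and 471 in Fused replicates 1 to 3, 236, 561 and 1816 in ISC replicates 1 to 3, and 357, 595 and 641 in Control replicates 1 to 3. On this shortened list ISC replicate 3 had the highest sum, and Fused replicate 2 the next highest with LYVE1 at 18.1.

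In ISC replicate 3 the mannose receptor MRC1 was at 249 and the scavenger receptor STAB1, of macrophages and sinus endothelium, at 689. These compared with 17.2 and 44.2 for MRC1 and 93.3 and 130 for STAB1 in ISC replicates 1 and 2. F13A1, of the same list, went the other way and was lowest in ISC replicate 3 among the ISC libraries. The remaining markers of the list are given only within the sums. The part of macrophages in the LYVE1 values was not tested.

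Markers of platelets and their precursors, another source of MMRN1, were highest in a Fused library. Of 14 markers 11 had a row, and their sum was 59.2, 909 and 112 in Fused replicates 1 to 3, 38.6, 284 and 92.3 in ISC replicates 1 to 3, and 43.4, 34.3 and 42.6 in Control replicates 1 to 3. Fused replicate 2, with 909, had the highest MMRN1 of the Fused libraries at 10.1, and Fused replicate 1, with 59.2, the lowest at 1.16. Of the 11 markers 2 were at 0 in every Control library (GP9 and GP5, platelet glycoproteins). The part of platelets in the Fused values of MMRN1 was not tested.

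**Figure D5:**
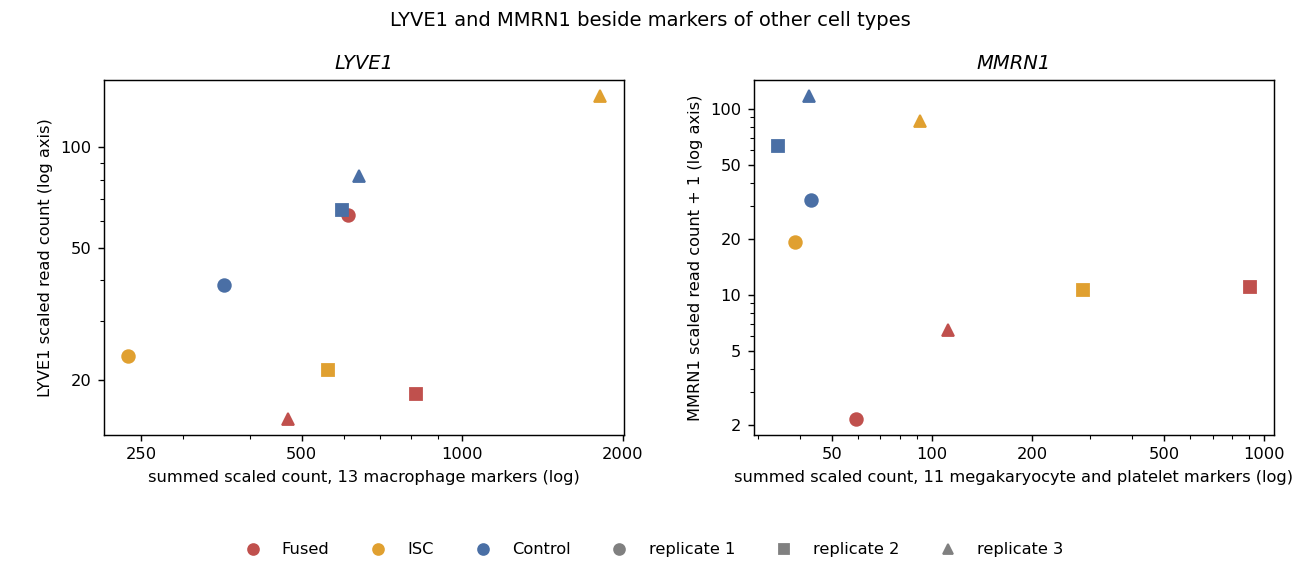
LYVE1 against the summed scaled read count of 13 macrophage markers, F13A1 left out (left), and MMRN1 plus 1 against that of 11 megakaryocyte and platelet markers (right), with a point per library and log axes. ISC replicate 3 has the most LYVE1 (142) and the highest sum on this shortened list (1816; with F13A1 its 2050 is below all Control libraries), and Fused replicate 2 has the highest platelet sum (909) with MMRN1 at 10.1.

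Skeletal muscle, a possible source of PROX1, was represented unevenly in the libraries. Of 18 muscle markers 13 had a row, and their sum was 28.4 to 104.5 in Fused, 23.9 to 845 in ISC, and 3307, 58.3 and 485 in Control replicates 1 to 3, where PROX1 was at 1.89, 4.79 and 15.7. These PROX1 values are 2, 6 and 18 reads, and the part of muscle in them was not tested. Of 16 lymphocyte and lymph node markers 15 had a row. Their sum was 70.8 to 317 in Fused, 31.1 to 168 in ISC and 11.3 to 36.5 in Control, so every Fused library lay above every Control library, the reverse of CCL21. In Fused against Control 4 of the 13 tested rose, beside 3.98% of all genes.

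Further cell types also differed between the libraries. The sum of 12 erythroid markers with a row was 23619 to 112059 in Fused, 7464 to 97172 in ISC and 1674 to 4074 in Control, and 8 of 9 tested rose in Fused against Control, again beside 3.98%. Of these markers HBG2 was at 0 in all libraries. Of 11 mural cell markers, those of smooth muscle and pericytes, 2 fell and 0 rose in Fused against Control, beside 2.60% and 3.98% of all genes, with sums of 1481 to 5845 in Fused and 3508 to 5363 in Control. Of 8 adipocyte markers 5 fell in ISC against Fused, beside 0.0779% of all genes called lower, with sums of 948 to 1139 in ISC, 3295 to 5952 in Fused and 1702 to 6435 in Control. Of 10 ligament fibroblast markers 4 fell in Fused against Control, beside 2.60%. The part of these differences in the values of the 5 genes was not tested.

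By likeness over the 9 libraries, the genes nearest to each of the 5 were sought outside the set. The other members were left out of the ranking, and r among the 5 is given apart. Likeness was Pearson's r of log2(value + 1), among 10040 candidate rows with a symbol and a mean value of at least 10, and 9 points that fall into 3 groups make high r common. Nearest to CCL21 were GPR1, a receptor of chemerin (r = 0.967), KCTD15 (r = 0.949) and GLIS2 (r = 0.945). Nearest to MMRN1 were TTC27, NPHP4 and TTC26 (r between 0.931 and 0.935). Nearest to PROX1 were FCGRT, the neonatal Fc receptor (r = 0.938), ACKR1, the chemokine scavenger of venules (r = 0.908), and SLC35F6 (r = 0.9004).

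Nearest to LYVE1 were FERMT2, an integrin activator (r = 0.983), TGFBR2, a TGF-beta receptor (r = 0.972), and CAST (r = 0.9599), and to FLT4 ZNF423, CXHXorf36 and AP4S1 (r between 0.947 and 0.967). GPR1 had scaled read counts of 2.32, 1.01 and 3.28 in Fused, 3.22, 2.39 and 30.1 in ISC, and 6.60, 23.96 and 32.2 in Control, and unlike CCL21 it overlapped between ISC and Fused. Among the 5 themselves r was 0.875 between CCL21 and MMRN1, 0.801 between CCL21 and LYVE1, 0.757 between CCL21 and PROX1 and 0.349 between MMRN1 and FLT4, the lowest of the 10 pairs.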

How the data were processed

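The authors deposited 3 tables, 1 per pair of groups, with the same scaled values of the 9 libraries. The unit is a normalized signal: the authors divided each library's read counts by its size factor, of the TMM kind by the names of the tables. Alignment was to oryCun2 with TopHat, per the submitters' processing notes and the series' design text. How reads were counted, with which annotation and whether by strand, is not given in the sources used here, and overlapping or antisense genes may share reads. Length is the summed exon length in bases in the deposited tables, listed there as an other column. In all libraries 100% of values were whole multiples of a smallest step (tolerance 1e-06), so reads were recovered by division, less surely in Fused replicate 2 and ISC replicate 3, where 1 read is worth 1.0058 and 1.0032. One table holds a row with no gene name, left out here. No 2 libraries of a group agreed within counting noise (mean chi-square per gene of at least 5.56).

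Limma 3.58.1 (R 4.3.3) was fitted per pair of groups to log2(value + 1) with a trend, two-sided, for genes at 1 or more in at least 3 of 6 libraries, with Benjamini-Hochberg adjustment over all tested genes. Changes are from this fit. Per comparison 16 alternatives were tried, among them edgeR 4.0.16 on recovered reads, which called 997, 5 and 29 genes in Fused against Control, ISC against Control and ISC against Fused. The 5 genes and all lists were chosen with earlier results of these data known. Named were the 5 genes with every value, up to 4 called genes per list and direction, a fixed panel of pathway genes as values, and the 3 nearest genes per member. Of 8020 rows named by a locus identifier, 700 were given symbols from RefSeq (mOryCun1.1), for naming alone. Intervals are exact (Clopper-Pearson) and cover counting error only.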

Additional observations from a re-analysis of the deposited data

Results flagged for a closer look

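SEMA3D, a secreted semaphorin, differed between the operated levels set against Control. It fell in Fused and not in ISC, and the direct test of ISC minus Fused gave a log2 difference of 3.27 (limma adjusted p = 0.0294), with all 3 ISC libraries above all 3 Fused libraries. The call was lost without any single library of either group except Fused replicate 1, while the log2 difference stayed at 2.84 to 3.38.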

How the results depend on the processing

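Both the counts of called genes and the changes of the 5 genes moved with the setting. With all 9 libraries in a single fit the counts were 25 for Fused against Control, 14 for ISC against Control and 214 for ISC against Fused, against 966, 7 and 43. Without single libraries they ranged from 0 to 2191, 4 to 38 and 0 to 24, with at least 1059 genes at an unadjusted p under 0.05 where limma called 0. Without the libraries with 5% or more haemoglobin reads they were 0 in Fused against Control (1924 at an unadjusted p under 0.05) and 0 in ISC against Fused (878). The replicate block gave 719, 3 and 88. Whether the replicate numbers pair the libraries is not stated in the labels. The r of same-numbered deviations ran from -0.1 to 0.314, and that of differently numbered ones from -0.502 to 0.276. A pseudocount of 0.1 gave 4 in ISC against Control. In ISC against Fused no filter gave 79 and median centring 74 (61 higher and 13 lower, against 31 and 12), and the rescaling without haemoglobin and mitochondrial genes gave 30 higher and 24 lower and moved the median of all genes to -0.29. Among the 5 genes LYVE1 changed sign in Fused minus Control (0.0875 without the haemoglobin-rich libraries), in ISC minus Control (0.002 with edgeR) and in ISC minus Fused (-0.20 without ISC replicate 3, -0.10 without the haemoglobin-rich libraries). FLT4 did in Fused minus Control (0.07 without Control replicate 3), and PROX1 in ISC minus Fused (-0.43 without ISC replicate 3, -0.40 with a pseudocount of 0.1). In Fused minus Control CCL21 ranged from -6.39 to -3.56 and MMRN1 from -4.84 to -2.75. The causes were not tested. PROX1 and Fused CCL21 are limited by depth.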
